A study of Homo sapiens with 17 samples.

Results

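The genes described here are 9 members of the plasminogen activator, serpin and coagulation inhibitor group: PLAU, PLAT, PLAUR, SERPINE2, SERPINB2, SERPINF1, TFPI, TFPI2 and THBD. They were chosen by gene symbol, and all 9 were found among the 9699 transcripts of the deposited table, each as 1 transcript. RNA-Seq (mRNA level) and Ribo-Seq (ribosome-protected fragments, a measure of translation) were applied in parallel to BJ cells, human fibroblasts immortalized by the telomerase subunit hTERT, in 5 conditions. The table holds 6 RNA and 6 Ribo-Seq columns from 2 sequencing runs, each with its own proliferating control, and 5 of these columns are the authors' combined value of 2 libraries while the others are single libraries.

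In run 1, proliferating cells were grown in normal medium, quiescent cells were depleted of serum, and pre-senescent cells had carried a tamoxifen-inducible RASG12V oncogene induced for 5 days. In run 2, proliferating cells were measured again beside senescent cells, with RASG12V induced for 14 days, and transformed cells. Induction was by 4-OHT (tamoxifen) at 1e-07 M. The transformed cells carried hTERT, stable knockdowns, that of p16INK4A among them, SV40 small T and RASG12V from a pBabe-puro retrovirus. All conditions share the hTERT background and come from 1 cell line, so they speak for that line only.

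Plasminogen activators cut the circulating proenzyme plasminogen into plasmin, a protease that dissolves fibrin and degrades extracellular matrix. PLAU encodes the urokinase-type activator, which works at the cell surface on its receptor PLAUR, and PLAT encodes the tissue-type activator, which works mainly on fibrin. Serpins trap their target protease in a covalent complex, and Kunitz-type inhibitors such as TFPI and TFPI2 block the active site reversibly. Fibroblasts secrete activators and inhibitors together, and the balance between them sets pericellular proteolysis during wound repair and matrix turnover.

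Values are FPKM, fragments scaled by transcript length and by the number of mapped reads, and the authors set every value under 1 to 1 FPKM. Translation efficiency (TE) is log2 of Ribo-Seq FPKM over RNA FPKM. Each condition was set beside the proliferating column of the same run, and a difference was called at 2-fold or more. With 1 column per condition and run there was no replicate test, no p-value and no SD, and the deposited values hold no read counts. The only repeated condition was proliferation: across genes its 2 columns differed with an SD of 0.63 in log2 RNA, 0.85 in log2 Ribo-Seq and 0.59 in TE, and 8.22%, 19.5% and 8.39% of genes differed by 2-fold or more. That spread joins run, culture and the number of libraries behind a column. In RNA it also joins the sequencing layout, since the paper lists the RNA libraries of run 1 as paired-end and those of run 2 as not.

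The labels of 2 Ribo-Seq libraries contradict themselves: the library titled senescent has proliferation in its condition field, and the library titled as the run 2 proliferating control has senescence. The titles were followed. MKI67, a gene of cycling cells, was at 1.00 FPKM in senescent RNA and 44.0 in proliferating RNA of run 2, and at 1.00 and 43.0 in the Ribo-Seq libraries titled senescent and proliferating. CCNA2, another gene of cycling cells, was at 1.02 and 43.2 in RNA and 1.00 and 49.5 in Ribo-Seq. With the titles followed, RNA and Ribo-Seq differences between senescence and proliferation had r = 0.839 over 9033 genes, and those between transformed cells and the same control, 0.858 over 9103. Ribo-Seq and TE values of senescence and of the run 2 control below rest on these titles, as does every difference from them. Ribo-Seq and TE levels of transformed cells and all RNA values do not. All 10 fibroblast markers examined were in the table, with a summed RNA level of 5090 to 8020 FPKM, of which VIM alone gave 2956 to 4881, while 1 of 8 endothelial markers (TIE1, at most 6.56 FPKM), 1 of 7 monocyte markers (CD14, at most 1.67) and 1 of 7 epithelial markers (KRT19, 39.8 in proliferating cells of run 2 and at most 4.43 elsewhere) were. Against the control of the run, RNA of 8 of the 10 fibroblast markers was at least 2-fold lower in senescence (median -2.58 in log2), of 5 in pre-senescence (-1.06) and of 3 in transformed cells (-0.83), and 2 were higher in quiescence (0.28). Of all genes tested, 13.6%, 2.13% and 5.54% were lower in the first 3 of these, in that order, and 4.24% were higher in quiescence. Genes named by the labels gave a mixed picture. RNA of CDKN2A, the p16INK4A gene, was 12.6 FPKM in the column labelled transformed and 6.75 in its control. Its Ribo-Seq levels went the other way, 5.51 and 8.92. HRAS RNA was 312 in the transformed column against 1254 to 2415 in the other 5, proliferation and quiescence included. Whether proliferating and quiescent cells carried the inducible construct without induction is not stated in the sources used here. Names of conditions below are therefore the labels' names.

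Promoter sequence was at hand for 6 of the 9 genes, in 8 windows of RefSeq (GRCh38.p14). The 250 bases before the start site of 4 genes are shown because PLAU and SERPINB2 had the widest range of levels and PLAUR and TFPI2 share a motif with SERPINB2. Capitals mark matches, on either strand, to an AP-1 motif (TGANTCA), a GC box (GGGCGG) or a TATA box (TATAAA).
SERPINB2, chr18:63887455-63887704, plus strand: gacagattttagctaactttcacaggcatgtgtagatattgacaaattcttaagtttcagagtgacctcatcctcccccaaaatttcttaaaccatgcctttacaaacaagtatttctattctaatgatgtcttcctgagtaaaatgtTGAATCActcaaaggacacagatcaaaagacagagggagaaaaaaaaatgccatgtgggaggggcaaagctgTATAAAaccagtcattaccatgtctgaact
PLAUR, chr19:43670170-43670419, minus strand: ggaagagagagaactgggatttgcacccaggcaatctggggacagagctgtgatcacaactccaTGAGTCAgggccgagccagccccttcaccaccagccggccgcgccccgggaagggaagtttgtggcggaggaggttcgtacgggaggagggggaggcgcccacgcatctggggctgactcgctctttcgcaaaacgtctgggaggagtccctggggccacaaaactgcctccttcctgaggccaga
TFPI2, chr7:93890754-93891003, minus strand: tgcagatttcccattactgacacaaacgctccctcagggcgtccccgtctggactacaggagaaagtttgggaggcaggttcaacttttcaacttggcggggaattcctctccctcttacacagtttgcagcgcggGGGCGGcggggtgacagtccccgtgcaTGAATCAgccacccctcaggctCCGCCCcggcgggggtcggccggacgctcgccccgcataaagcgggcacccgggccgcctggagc
PLAU (its second listed start), chr10:73910882-73911131, plus strand: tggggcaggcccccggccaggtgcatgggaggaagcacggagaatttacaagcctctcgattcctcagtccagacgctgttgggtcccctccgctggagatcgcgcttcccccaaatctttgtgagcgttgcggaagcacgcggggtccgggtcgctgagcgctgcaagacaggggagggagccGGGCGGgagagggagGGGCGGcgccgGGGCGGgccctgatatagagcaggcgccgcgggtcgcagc
The AP-1 letters lay 102 to 96 bases before the SERPINB2 start, 186 to 180 before PLAUR and 87 to 81 before TFPI2, and 6.57% of 35116 promoter windows of the same length hold them. SERPINB2 also had TATAAA at 30 to 25 bases before its start, as 10.7% of windows do. GGGCGG, present in 42.6% of windows, occurred 3 times before the second PLAU start, and TGACGTCA, a CRE motif in 1.65%, was in none of the 8 windows. The window of the first listed PLAU start, not shown, had no match to any motif searched. The windows of TFPI and SERPINE2, also not shown, had no AP-1 match. The motifs searched do not overlap each other in these sequences, and a match is a description of letters only.

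The 2 activators differed from each other in where they were high. PLAU RNA was 111 FPKM in proliferation of run 1, 162 in quiescence and 332 in pre-senescence, and 70.3 in proliferation of run 2, 259 in senescence and 1564 in the column labelled transformed. Its Ribo-Seq levels were 169, 276 and 602 in run 1 and 121, 665 and 2563 in run 2, in the same order of conditions. Both readouts were lowest in the proliferating columns and highest in the transformed one, where PLAU stood at place 13 of 9699 by RNA level and 25 by Ribo-Seq.

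Against proliferation of the same run, PLAU RNA was 3.01-fold higher in pre-senescence, 3.68-fold in senescence and 22.3-fold in transformed cells, and Ribo-Seq 3.55-, 5.48- and 21.1-fold. The transformed difference was at place 7 of 9328 genes in RNA and 11 of 9273 in Ribo-Seq. In quiescence the difference was short of 2-fold (0.55 in log2 RNA, 0.70 in log2 Ribo-Seq) and of about the size by which the proliferating columns differed for this gene (-0.65 and -0.48, run 2 minus run 1). Pre-senescence and senescence lay closer to each other in RNA level than the proliferating columns did, and their order is not set. PLAU TE stayed between 0.62 and 1.36 in all columns.

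PLAT RNA was 97.4 FPKM in proliferation of run 1, 257 in quiescence and 110.8 in pre-senescence, and 210.0 in proliferation of run 2, 449 in senescence and 499 in transformed cells. Ribo-Seq levels were 253, 795 and 378 in run 1 and 576.5, 1817 and 1425 in run 2. Quiescence, senescence and transformation were high, and pre-senescence lay near its control. The folds were 2.64 (RNA) and 3.14 (Ribo-Seq) in quiescence, 2.14 and 3.15 in senescence and 2.38 and 2.47 in transformed cells. The proliferating columns themselves differed by 1.11 in log2 RNA and 1.19 in log2 Ribo-Seq, as much as the RNA difference in senescence, so this gene's levels are compared within runs only. PLAT Ribo-Seq in senescence was at place 40 of 9699.

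The ratio of the activators on the FPKM scale moved with these patterns. In run 1, PLAU RNA was 1.13 times PLAT RNA in proliferation, 0.629 times in quiescence and 3 times in pre-senescence. In run 2 the ratio was 0.335 in proliferation, 0.577 in senescence and 3.14 in transformed cells. Quiescence was thus below its control, while pre-senescence, senescence and transformed cells were above theirs.

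PLAUR, the urokinase receptor anchored in the membrane by a lipid, had the flattest profile but for TFPI. Its RNA was 81.1, 112 and 136 FPKM in proliferation, quiescence and pre-senescence and 64.9, 66.5 and 112 in proliferation, senescence and transformed cells. Its Ribo-Seq levels were 245, 370.3 and 419.8 in run 1 and 149.6, 193 and 263 in run 2. No difference from a control reached 2-fold, and the largest was 0.81 in log2 Ribo-Seq, in transformed cells. Across the columns its RNA spanned 2.09-fold, against 22.3-fold for its ligand PLAU, so the ratio of PLAU to PLAUR RNA went from 1.08 in proliferation of run 2 to 14 in transformed cells.

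**Figure D1:**
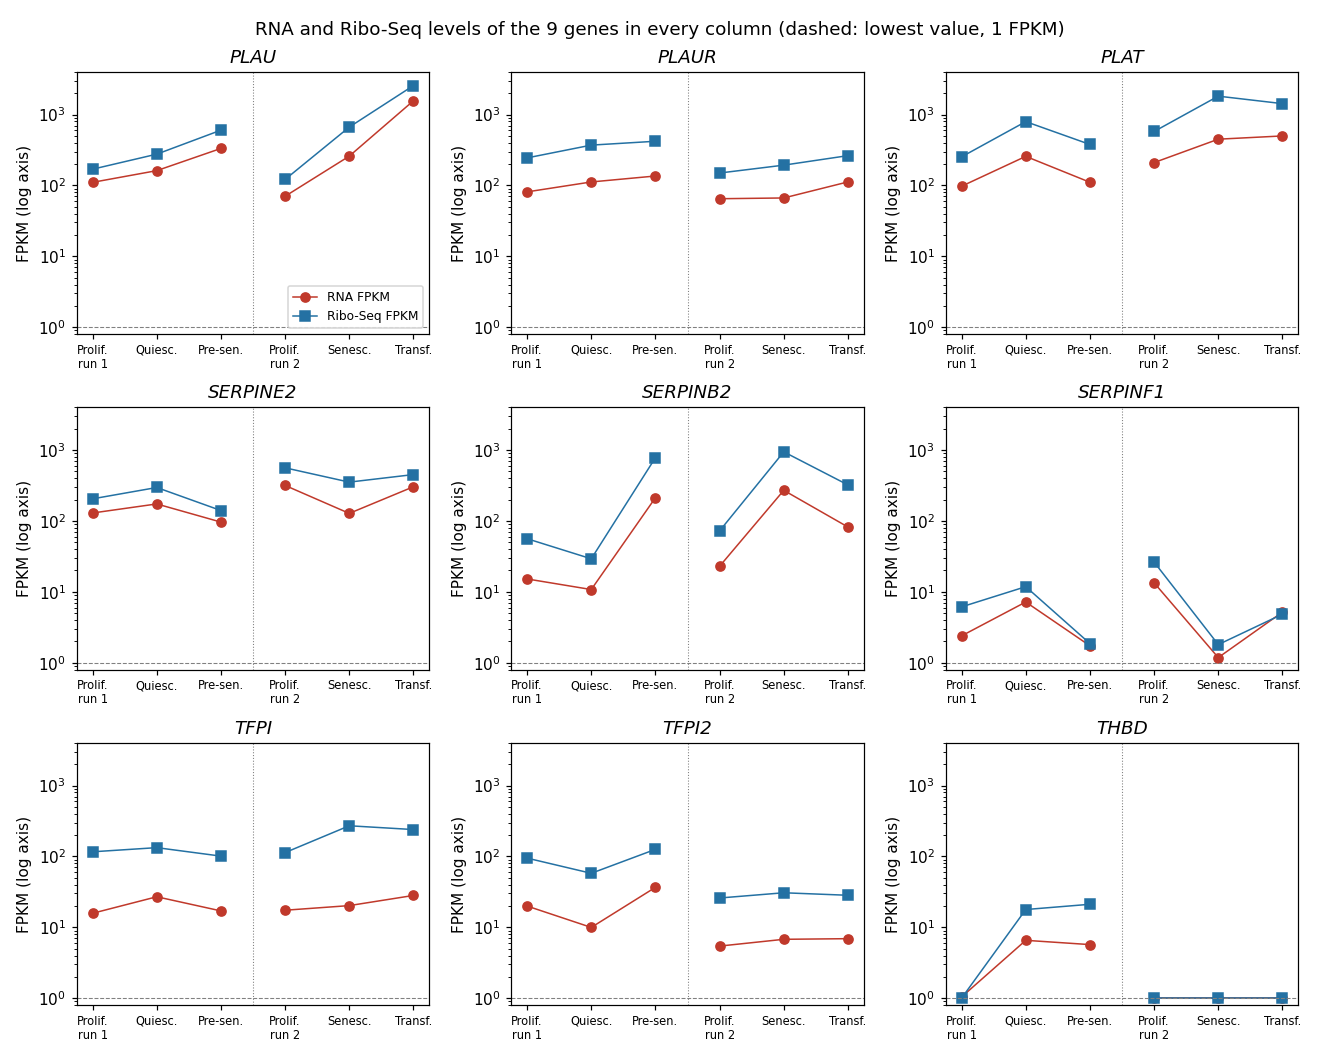
RNA (red circles) and Ribo-Seq (blue squares) level of each of the 9 genes in FPKM on a log axis, in the 3 columns of run 1 (left of the dotted line) and of run 2 (right); each point is 1 column without error, and the dashed line is the lowest value the table can hold, 1 FPKM. PLAU climbs to 1564 FPKM of RNA in transformed cells, SERPINB2 is high in pre-senescence (213) and senescence (270.1), and THBD lies at the lowest value in all of run 2.

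Among the serpins, SERPINB2 (plasminogen activator inhibitor 2, which inhibits urokinase and is held mostly inside cells) was high with RASG12V. Its RNA was 15.2 FPKM in proliferation of run 1, 10.8 in quiescence and 213 in pre-senescence, and 22.9 in proliferation of run 2, 270.1 in senescence and 82.05 in transformed cells. Ribo-Seq levels were 56.1, 29.2 and 780.4 in run 1 and 72.3, 943 and 322 in run 2. The 3 conditions labelled with RASG12V were above every other column in both readouts.

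SERPINB2 RNA was 14-fold higher in pre-senescence, 11.8-fold in senescence and 3.58-fold in transformed cells than in the control, and Ribo-Seq 13.9-, 13- and 4.45-fold. In pre-senescence it held place 2 of 9124 genes in RNA and 7 of 9170 in Ribo-Seq, and in senescence 20 of 9257 and 30 of 9229. Quiescence lay below the control without reaching 2-fold (-0.50 and -0.94 in log2). The differences in its TE from a control were between -0.44 and 0.32. SERPINB7, the serpin gene next to SERPINB2 on chromosome 18 in the RefSeq gene order, had RNA levels of 24.9, 14.8 and 62.4 FPKM in run 1 and 27.7, 104 and 39.1 in run 2.

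Urokinase and this inhibitor were thus high in the same conditions but in different proportion. The ratio of PLAU to SERPINB2 RNA was 7.28 in proliferation, 15 in quiescence and 1.56 in pre-senescence, and 3.07 in proliferation, 0.959 in senescence and 19.1 in transformed cells. The Ribo-Seq ratio had the same order within each run (3.02, 9.45 and 0.771, then 1.68, 0.705 and 7.96), but was highest in quiescence over all columns, and the RNA ratio in transformed cells.

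SERPINE2 (protease nexin 1, a secreted inhibitor of thrombin, urokinase and plasmin) was lower in senescence in RNA. RNA levels were 129, 174 and 96.3 FPKM in proliferation, quiescence and pre-senescence and 317, 128 and 303 in proliferation, senescence and transformed cells, and Ribo-Seq levels 205, 296 and 140.2, then 561, 353 and 451. Only the RNA difference in senescence passed 2-fold (-1.31 in log2), while the Ribo-Seq difference there was -0.67. The senescent RNA level was nevertheless that of proliferation in run 1, since the proliferating columns differed by 1.29 in log2 RNA and 1.45 in log2 Ribo-Seq.

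SERPINF1 (pigment epithelium-derived factor, a serpin without protease-inhibiting activity that restrains vessel growth) was the least abundant of the 3 serpins among the members. Its RNA was 2.39, 7.18 and 1.73 FPKM in run 1 and 13.4, 1.18 and 5.17 in run 2, and its Ribo-Seq levels 6.13, 11.8 and 1.86, then 26.3, 1.80 and 4.83. Pre-senescence and senescence lay close to the lowest value of the table. RNA was 3-fold higher in quiescence, 11.4-fold lower in senescence and 2.59-fold lower in transformed cells. Ribo-Seq was 14.6-fold lower in senescence, 5.44-fold lower in transformed cells and, in log2, -1.72 in pre-senescence. The proliferating columns differed more for SERPINF1 than for any other of the 9 genes, 5.61-fold in RNA and 4.29-fold in Ribo-Seq. COL1A1 and DCN, matrix genes of fibroblasts, also differed between those columns, with RNA at 371 and 27.6 FPKM in run 1 and 1328 and 164 in run 2, and their part in the SERPINF1 result was not tested.

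TFPI, which blocks the tissue factor pathway at its start, differed more in Ribo-Seq than in RNA in the conditions of run 2. Its RNA varied least of the 9 genes, at 15.8, 27.0 and 17.0 FPKM in run 1 and 17.4, 20.2 and 28.1 in run 2. Its Ribo-Seq levels were 116, 133 and 101, then 113, 271 and 239. Senescence and transformation were therefore above every other column in Ribo-Seq, and exceeded their control by 2.39-fold and by 1.08 in log2, with RNA differences of 0.22 and 0.69 in log2. The TE differences were 1.04 in senescence and 0.39 in transformed cells. Both Ribo-Seq differences were within the 1.72 that 95% of genes keep to between the proliferating columns, where TFPI itself differed by -0.04.

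TFPI2, a related Kunitz inhibitor of plasmin and other proteases laid down in the matrix, had its main difference between the runs. RNA levels were 19.9, 9.96 and 36.6 FPKM in proliferation, quiescence and pre-senescence, but 5.43, 6.77 and 6.91 in the columns of run 2, and Ribo-Seq levels 94.6, 57.8 and 126, then 25.9, 30.7 and 28.3. Every run 2 column was below every run 1 column, and the 2 proliferating columns differed 3.67-fold in RNA and 3.65-fold in Ribo-Seq. Within runs, only quiescence reached 2-fold, barely and in RNA alone (place 228 from the bottom of 9198 genes, with -0.71 in log2 Ribo-Seq), and pre-senescence was higher by 0.88 and 0.41.

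THBD (thrombomodulin, a surface receptor that turns thrombin into an activator of protein C) was seen in 2 conditions. Its RNA was 6.55 FPKM in quiescence and 5.70 in pre-senescence against 1.04 in proliferation of run 1, and its Ribo-Seq levels were 17.8 and 21.1 against 1.00. In all 6 columns of run 2, THBD was at the lowest value, 1.00 FPKM. RNA was 6.3-fold higher in quiescence and 5.48-fold in pre-senescence, and Ribo-Seq at least 17.8- and at least 21.1-fold. The control is at or next to the lowest value. THBD is known as an endothelial gene. The only endothelial marker in the table, TIE1, had RNA of 1.19 FPKM in quiescence and 6.56 in pre-senescence against 1.00 in the control. TIE1 RNA was also 3.65 in transformed cells against 1.00 in their control, where THBD was at the lowest value. The part of TIE1 in the THBD result was not tested.

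Counted over the group, 8 genes passed the filter of 2 FPKM in both runs. THBD passed in run 1 only, through the columns where it was high, and is left out of these counts. SERPINF1 is kept, although in pre-senescence and senescence it passed through the control only. Its levels there were 1.73 and 1.18 FPKM in RNA and 1.86 and 1.80 in Ribo-Seq, so its calls as lower in those conditions rest on the control. In quiescence, RNA of PLAT and SERPINF1 was at least 2-fold higher and that of TFPI2 lower, where 4.24% of all genes tested were higher and 2.5% lower. In Ribo-Seq 1 gene, PLAT, was higher and none lower, with 9.59% and 8.44% of all genes. The median over the 8 genes was 0.51 in log2 RNA, against -0.01 for all genes. Between the 2 proliferating columns themselves, 4 of the 8 genes differed by 2-fold or more in RNA, where 8.22% of all genes did. PLAT, SERPINE2 and SERPINF1 were higher in run 2 and TFPI2 was lower.

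In pre-senescence, PLAU and SERPINB2 were higher in RNA and none of the 8 lower, where 1.89% and 2.13% of all genes were. The same pair was higher in Ribo-Seq and SERPINF1 was lower (all genes: 7.55% and 10.9%). The median over the 8 genes was 0.46 in log2 RNA and 0.50 in log2 Ribo-Seq, against 0.04 and -0.13 over all genes. The all-gene median lay more than 0.1 from 0 also in TE of pre-senescence (-0.15) and Ribo-Seq of senescence (-0.12).

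In senescence, RNA of PLAU, PLAT and SERPINB2 was higher and that of SERPINE2 and SERPINF1 lower among 8 genes, where 7.42% and 13.6% of all genes were. In Ribo-Seq 4 were higher, TFPI being the addition, and SERPINF1 was lower (all genes: 11.6% and 17.4%). If the condition fields were followed in place of the titles, every Ribo-Seq difference of this comparison would keep its size and turn its sign.

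In transformed cells, the same 3 genes, PLAU, PLAT and SERPINB2, were higher in RNA and SERPINF1 lower (all genes: 5.11% and 5.54%). Ribo-Seq gave these and TFPI as higher and SERPINF1 as lower (5.52% and 7.71%). With the condition fields followed, the log2 Ribo-Seq difference of PLAU would be 1.95 in place of 4.40. Senescence and transformation share the control of run 2, so their calls are not independent of each other.

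**Figure D2:**
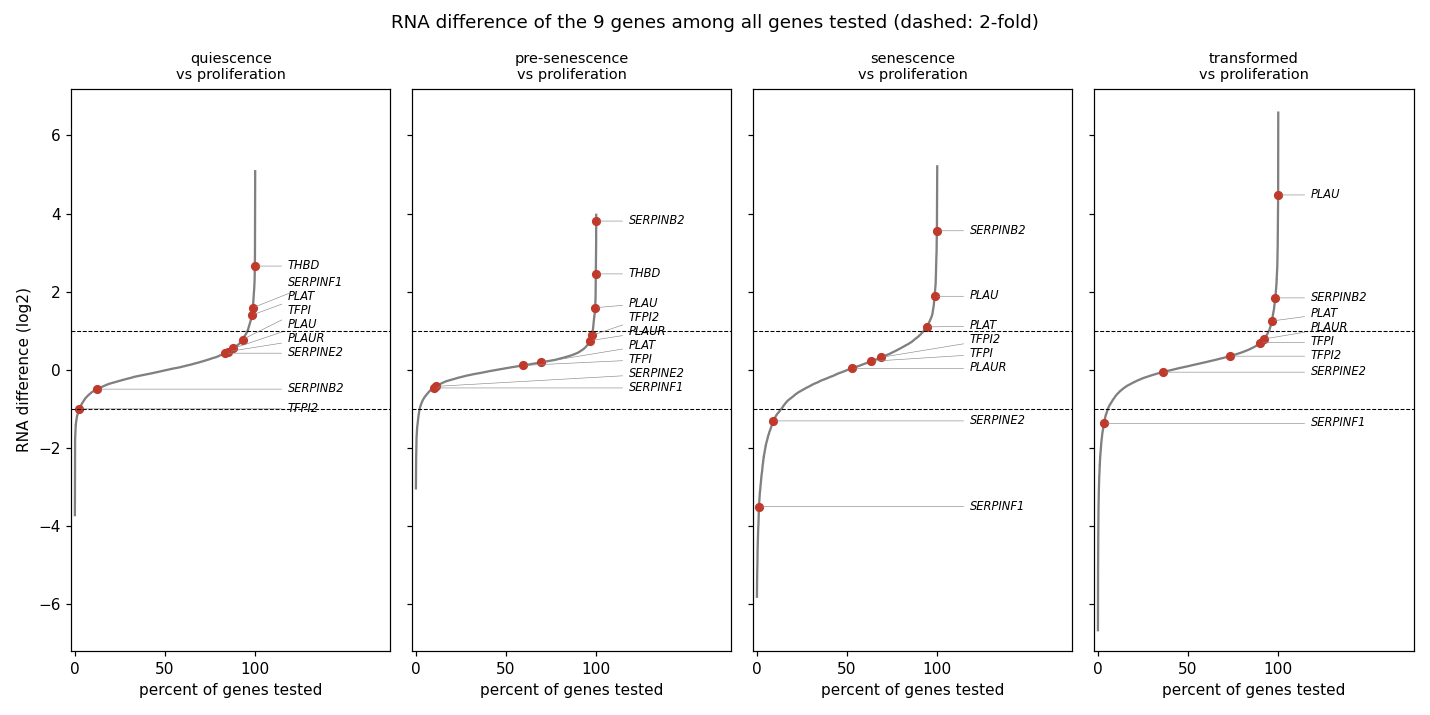
All genes tested in each comparison, sorted by RNA difference from proliferation (log2, vertical axis) against the percent of genes at or below it (gray line), with the 9 genes as red points and 2-fold as dashed lines. SERPINB2 sits at the upper end in pre-senescence and senescence, PLAU in transformed cells and THBD in quiescence, while PLAUR stays within the dashed lines in all 4 panels.

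Senescence and transformation both follow RASG12V in run 2 and could be set beside each other without the proliferating control. RNA of SERPINB2 was higher in senescence (1.72 in log2), and RNA of PLAU (-2.59), SERPINE2 (-1.25) and SERPINF1 (-2.13) was lower, where 8.45% of all genes were higher and 15.8% lower. In Ribo-Seq SERPINB2 was higher (1.55) and PLAU (-1.95) and SERPINF1 (-1.42) lower, with 13.3% and 18.1% of all genes. PLAT differed little (-0.15 and 0.35).

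In quiescence none of 8 genes passed 2-fold in TE, where 6.92% of all genes did in either direction. SERPINF1 alone passed in pre-senescence (-1.25, with 13% of all genes) and in transformed cells (-1.07, with 2.6%), in the former from levels of 1.73 and 1.86 FPKM. TFPI passed in senescence (1.04, or 2.06-fold, place 188 of 8636), where 8.53% of all genes did. That value is within the 1.21 that 95% of genes keep to between the proliferating columns, and TFPI itself differed by -0.18 there. No member passed between senescence and transformation (4.9% of all genes), though the TE of 7 of 8 genes, SERPINB2 being the exception, was higher in senescence, with a median of 0.58 against 0.03 for all genes. Medians of other gene lists in that comparison were 0.54 for other serpins, 0.60 for fibroblast markers and 0.08 for the plasmin system. The coagulation list, which holds TFPI and TFPI2 themselves, had 0.58. A median of this size is thus not particular to these 8 genes.

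TFPI, with TE of 2.30 to 3.74, was the highest of the 9 genes in 5 of 6 columns, and TFPI2 was above it in quiescence (2.54). PLAU and SERPINE2 had TE of 0.54 to 1.47, and the median of all genes was 0.26 to 0.43. PLAUR, PLAT and SERPINB2 had TE of 1.20 to 2.02. Differences between genes in this ratio also depend on the counting, since RNA was counted over the whole transcript and Ribo-Seq over the coding part.

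**Figure D3:**
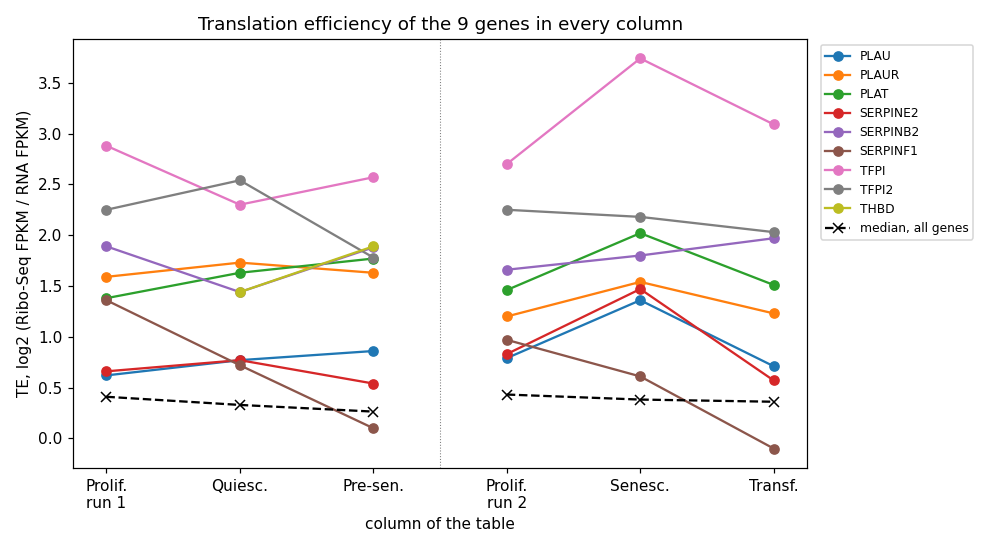
TE (log2 of Ribo-Seq FPKM over RNA FPKM) of each gene in the 6 columns, run 1 left and run 2 right of the dotted line, 1 point per column without error; the dashed line with crosses is the median of all genes, and THBD has values in 2 columns only. TFPI peaks in senescence at 3.74, and SERPINF1 goes down to -0.10 in transformed cells.

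Of 19 other genes listed for the plasmin system, 9 were in the table. None passed 2-fold in RNA in pre-senescence, and 1 was higher in quiescence and 2 were higher and 1 lower in senescence, beside the shares of all genes given above. VLDLR, an endocytic receptor for inhibitor complexes, had RNA of 9.63 FPKM in quiescence and 12.6 in senescence against 4.24 and 4.82 in the controls. ANXA2, a plasminogen-binding surface protein, was at 4956 in senescence against 2134. MRC2, a collagen receptor associated with the urokinase receptor, was at 47.5 against 159.8 there.

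Of 21 other serpins, 8 were in the table, 3 of them also in the plasmin list. In RNA 1 of 7 tested was higher in quiescence (SERPING1, the C1 inhibitor, 4.38 against 1.72 FPKM) and 1 of 6 in pre-senescence (SERPINB7). In senescence SERPINB7 and SERPINI1 (4.25 against 1.00) were higher and SERPING1 (10.2 against 27.6) was lower, and in transformed cells SERPING1 (9.17) was lower too. In these 2 conditions 8 and 7 were tested. SERPING1 in quiescence and SERPINI1 in senescence passed the filter only through the column where they were high. The shares of all genes given below for the coagulation genes apply here too. Of 26 coagulation genes 13 were in the table, TFPI, TFPI2 and THBD among them. RNA of 4 was higher and of 2 lower in quiescence, 1 and 2 in pre-senescence, 1 and 1 in senescence and 1 and 2 in transformed cells. Of all genes tested, 4.24% and 2.5%, 1.89% and 2.13%, 7.42% and 13.6%, and 5.11% and 5.54% were higher and lower, in the same order. THBD is counted here, in quiescence and as the only higher gene of pre-senescence, and TFPI2 is among those lower in quiescence. In quiescence THBD, F10 and PROS1 passed the filter through the quiescent column only. F3, tissue factor, which starts coagulation and is the target of TFPI, was at 37.2 FPKM in quiescence against 91.8. F2RL1, a receptor cut by trypsin-like proteases, was at 35.5 in transformed cells against 5.46. F2RL2, a thrombin receptor, was at 67.8 in senescence against 20.8, and THBS1, a matrix glycoprotein, at 91.8 against 805. GAS6 was lower in pre-senescence (58.0 against 187) and transformed cells (82.7 against 185). PROS1, the anticoagulant protein S, was at 3.96 in quiescence against 1.94 and at 1.32 in transformed cells against 4.24, and F10, coagulation factor X, at 2.81 in quiescence against 1.19.

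For each of 8 members, the 3 genes with the most similar log2 profile over the 12 columns were taken from 3019 genes, THBD being left out for its values at the lowest level. The RNA and Ribo-Seq columns of a condition come from the same state, so these correlations are descriptions. Profiles were not centred within runs, so differences between the runs enter r as well. High values also follow from the choice of the most similar among 3019 genes. PLAU was nearest to PRDM1 (r = 0.952) and TNFRSF21 (0.946), and PLAT to ECE1 (0.978) and F2R (0.956), the main thrombin receptor. PLAUR was nearest to TACC2 (0.966), SERPINB2 to IL13RA2 (0.972), SERPINE2 to TNFRSF11B (0.954) and SERPINF1 to GHDC (0.949). TFPI was nearest to SLC5A3 (0.922) and TFPI2 to DHX34 (0.920). No member was among the 3 nearest genes of another member.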

How the data were processed

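RNA-Seq and Ribo-Seq libraries (17 described by the labels) were sequenced in 2 runs. Per the labels and the study's methods, the authors aligned 50-nt reads with Bowtie (version not given in the sources used here; build hg19 in the submitters' processing notes) to Ensembl release 65 protein-coding transcripts, kept unique reads, counted RNA over the transcript and Ribo-Seq over the coding sequence, and deposited FPKM with values under 1 set to 1. They combined 2 libraries in 5 of the 12 columns, by a method not given in the sources used here, and no column belonged to another series. The deposited FPKM hold no counts and the library totals that the study states were not used here, so no interval was computed, and without replicate columns there was no test.

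Log2 differences were computed from the deposited values without a pseudocount (Python 3.11.15, pandas 2.3.3, numpy 2.4.6), for genes with at least 2 FPKM in a compared column. TE also required both values of both conditions above 1. Calls were at 2-fold. THBD was left out of the counts over members after its values were seen, because it passed the filter through its high columns only. SERPINF1 was kept, though in pre-senescence and senescence it passed through the control only. Folds against 1 FPKM are lower bounds. The fold calls were checked on a simulated RNA column with planted changes larger than 2-fold and far less scatter than between the proliferating columns. That check does not measure how reliable the calls are in these data. Profiles were compared by Pearson correlation among genes with an SD of at least 0.5 in log2.

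The named genes were the 9 members, and genes of the pathway lists past 2-fold in RNA against proliferation, at most 8 per list. Members and lists were chosen with earlier results of these data known. Alternatives were a pseudocount of 1 FPKM, centring on the median gene, both proliferating columns as control, filters of 0 and 10 FPKM, calls at 1.5-fold and the condition fields of the conflicting labels. Results for some items are not reported here.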

Additional observations from a re-analysis of the deposited data

Results flagged for a closer look

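SERPINF1 RNA differed from proliferation in opposite directions: it was higher in quiescence (1.59 in log2) and lower in senescence (-3.51) and in the column labelled transformed (-1.37). The difference between these differences was not tested, since each rests on 1 column per condition. The 2 proliferating columns they are measured from differed by 2.49 in log2 RNA, and against the mean of both the values were 0.34 in quiescence, -2.26 in senescence and -0.13 in transformed cells.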

How the results depend on the processing

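No paired analysis was possible because each condition had 1 column per run and kind, and for the same reason no replicate could be left out. Of 396 alternative values of the 9 genes, 335 moved by less than the difference SD of the proliferating columns, 48 moved further and 13 reversed, that is, a difference called at 2-fold changed its sign. All 13 did so with the condition fields followed for the conflicting Ribo-Seq labels: in senescence, Ribo-Seq PLAU -2.45, PLAT -1.66, SERPINB2 -3.70, SERPINF1 3.87 and TFPI -1.26, and TE of TFPI -1.47; in transformed cells, Ribo-Seq PLAT -0.35, SERPINB2 -1.55, SERPINF1 1.42 and TFPI -0.18, and TE of SERPINF1 2.80; in senescence against transformed cells, Ribo-Seq SERPINB2 -2.16 and SERPINF1 2.44. Under that reading the members called became 6 (from 1) in TE of senescence, 3 (from 5) in Ribo-Seq and 4 (from 1) in TE of transformed cells, and 5 (from 3) in Ribo-Seq and 5 (from 0) in TE between the 2 conditions.

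In the counts here THBD is included. With the mean of both proliferating columns as control, members called went from 4 to 1 in RNA of quiescence, 3 to 6 in RNA and 4 to 7 in Ribo-Seq of pre-senescence and 1 to 0 in TE of senescence. A filter of 10 FPKM gave 2 (from 4) in RNA of quiescence and 0 (from 1) in TE of pre-senescence. Calls at 1.5-fold gave 7 (from 2) in Ribo-Seq and 1 (from 0) in TE of quiescence, 5 (from 3) in RNA of pre-senescence, 2 (from 1) in TE of senescence and 4 (from 0) in TE between senescence and transformed cells. Centring gave 0 (from 1) in TE of transformed cells. A pseudocount of 1 FPKM and no filter left all 15 member counts within 1.5 times. The fewer genes, the looser threshold and the other control are the alternatives' own construction. Centring on the median gene gave 124 of the 335 values that stayed within the SD. It could not move a value further, since the all-gene median furthest from 0 was -0.15 in log2. The changes of sign in Ribo-Seq of senescence follow from the exchange of the 2 columns itself.

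Over all genes, the 15 comparisons called 231 to 2905 genes, 1151 to 4969 at 1.5-fold and 79 to 1970 with the 10 FPKM filter. The pseudocount lowered TE calls from 615 to 372 in quiescence and from 231 to 124 in transformed cells, where the mean control gave 370. The condition fields gave 3999 TE calls in senescence (from 737), 2121 in transformed cells (from 231) and 1787 between them (from 423), and exchanged the Ribo-Seq counts of transformed cells against proliferation and senescence (1227 and 2905). The values hold no read counts, and SERPINF1 and THBD are close to the lowest value in some columns.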
